A study of Mus musculus with 13 samples.

Results

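The transcripts of 9 enzymes of the tricarboxylic acid cycle were followed in single mouse microglia across the length of high-fat feeding. The members were named by symbol, namely Cs, Idh3g, Idh2, Idh1, Ogdh, Dlst, Suclg1, Fh1 and Mdh2. All 9 were found among the 17280 genes of the filtered count table that all 13 plates share. Male C57BL/6J mice received standard chow, the control diet (NC), or HFD of 60% fat for 1 day, 3 days, 1 week, 4 weeks, 9 weeks or 16 weeks. All mice were wild type. Hypothalamic cells were sorted as CD45lo CD11b+ into the wells of 13 plates and sequenced by CEL-Seq2. Random bases added to each molecule before amplification (UMIs, unique molecular identifiers) let copies of 1 molecule be counted once. The wells labelled 1_week and 7_days were taken as 1 length.

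The tricarboxylic acid cycle runs in the mitochondrial matrix. It oxidizes the acetyl group that pyruvate dehydrogenase and fatty acid β-oxidation deliver, passes electrons to the respiratory chain, and gives up citrate, 2-oxoglutarate, succinate and malate to other pathways. In macrophages and microglia the cycle is best known for its breaks on inflammatory activation, at which citrate, itaconate and succinate leave it. Enzyme activity in the cycle is set largely by calcium, NADH and substrate supply, so transcript levels are only one of the layers on which it is controlled.

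Of 2496 wells, 1617 held at least 1500 transcripts over the filtered genes and were analysed, with a median of 2840 transcripts per well. Wells are not replicates. Their counts were therefore summed over the wells of 1 replicate identifier on 1 plate where at least 5 wells were present. Levels are given as CPM, the count of a gene divided by the transcripts of the sum over the filtered genes and scaled to a common total. This gave 68 sums of 22774 to 219199 transcripts, 28 of them on NC and 6, 6, 7, 5, 6 and 10 at 1 day, 3 days, 1 week, 4 weeks, 9 weeks and 16 weeks of HFD. The well annotation does not say whether an identifier is 1 mouse, and the 29 identifiers recur, 11 of them under several diets or lengths, so an identifier was taken as 1 replicate only within plates whose well names link them. This gave 44 replicates, 16 of them on several plates, so p-values measure the spread between these sums and the residual degrees of freedom are overstated. The 8 microglial markers, Cx3cr1, P2ry12 and Tmem119 among them, were all detected at every length, and together reached 21689 to 36023 CPM in every sum. S100a9, the neutrophil marker that the table holds, was at 0 in all NC sums and reached 12948 CPM in 1 sum at 4 weeks. The share of analysed wells with 3 or more transcripts of other cell types' markers was 2.78%.

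CEL-Seq2 counts the 3′ ends of transcripts, so a count does not grow with gene length and levels of different genes may be compared on the CPM scale. In GENCODE M21 on GRCm38, Cs lies at chr10:128337734-128362479, Ogdh at chr11:6291633-6356642, Dlst at chr12:85110833-85134845, Suclg1 at chr6:73248382-73276911 and Mdh2 at chr5:135778480-135790398, all on the plus strand. On the minus strand lie Idh3g at chrX:73778963-73786897, Fh1 at chr1:175600374-175625635, Idh2 at chr7:80094846-80115392 and Idh1 at chr1:65158616-65186500. The 9 genes thus sit on 8 chromosomes, and only Fh1 and Idh1 share one. No exon of another gene overlapped an exon of a member. No other annotated transcript shared a run of 50 bases with the last 500 bases of a member's coding transcripts. Reads from these ends could therefore not be split with an annotated copy identical over 50 bases. Near copies that differ within every such run were not searched for.

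RefSeq promoter windows, 250 bases before to 50 bases after each start site on GRCm38.p6, were found for all 9 members, 15 windows in all. Their GC content ran from 49.3% to 72.3% with a median of 60.3%, where the median over all 32851 windows was 52.7%. The windows of Idh3g, the member with the highest level, and of Fh1, among the lowest, are shown as examples of the ETS and CCAAT motifs, with matches in capitals.
Idh3g, chrX:73786848-73787147, minus strand: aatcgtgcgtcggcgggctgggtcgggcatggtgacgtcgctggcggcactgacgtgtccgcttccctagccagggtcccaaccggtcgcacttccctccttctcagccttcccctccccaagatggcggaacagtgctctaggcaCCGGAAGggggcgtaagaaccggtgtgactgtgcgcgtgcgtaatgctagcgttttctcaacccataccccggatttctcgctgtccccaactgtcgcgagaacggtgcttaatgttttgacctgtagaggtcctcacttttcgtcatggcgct
Fh1, chr1:175625586-175625885, minus strand: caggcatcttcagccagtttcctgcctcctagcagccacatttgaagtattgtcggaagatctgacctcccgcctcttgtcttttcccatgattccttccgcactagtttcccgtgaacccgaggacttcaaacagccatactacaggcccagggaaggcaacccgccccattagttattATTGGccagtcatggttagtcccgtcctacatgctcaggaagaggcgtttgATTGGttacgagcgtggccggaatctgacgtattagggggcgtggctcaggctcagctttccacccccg
Idh3g held 1 match to the ETS motif CCGGAAG, and Fh1 held 2 matches to CCAAT, both read here as ATTGG from the other strand. Across the members, CCAAT was found in 10 of the 15 windows (of Cs, Fh1, Idh1, Idh2 and Ogdh) and in 37.4% of all windows. CCGGAAG was found in 2 of the 15 (of Dlst and Idh3g) and in 8.86% of all windows, and the cyclic AMP response element TGACGTCA in 4 of the 15 (of Mdh2 and Ogdh) and in 1.79% of all windows. Windows of 1 gene can overlap, so they are not independent. Neither the NRF1 motif, present in 4.60% of all windows, nor TATAAA, present in 13.6%, matched a member's window. Both strands were searched, and no motif's letters hold another's. A match describes the letters and is no evidence of binding.

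On control diet all 9 enzymes were detected at modest levels, with Idh3g at the top and Idh1 and Fh1 at the bottom. Idh3g encodes the gamma subunit of the NAD-dependent isocitrate dehydrogenase, a regulated step of the cycle, and averaged 129 CPM ± 60.1 (SD, n = 28 sums). Dlst, the succinyltransferase core of the 2-oxoglutarate dehydrogenase complex, followed at 83.6 ± 45.2. Cs, citrate synthase, which admits acetyl-CoA to the cycle, stood at 75.6 ± 32.4. Ogdh, the dehydrogenase component of the same complex as Dlst, stood at 74.1 ± 41.0. Mdh2, the mitochondrial malate dehydrogenase, was at 69.9 ± 33.4, Idh2, the mitochondrial NADP-dependent isocitrate dehydrogenase, at 61.8 ± 34.4, and Suclg1, the alpha subunit of succinyl-CoA ligase, at 60.0 ± 42.3. Fh1, fumarate hydratase, was at 29.6 ± 24.1. Idh1, whose product is the cytosolic and peroxisomal counterpart of Idh2 and lies outside the matrix, was at 26.6 ± 26.1.

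No neighbours in this order differed by more than the SD of their difference between single sums. That SD describes single sums and is not the error of a mean over the 28 sums. The widest step, from Idh3g to Dlst, was 44.9 CPM ± 76.6 (SD), and Idh3g was the higher of the pair in 19 sums. Suclg1 exceeded Fh1 by 30.4 CPM ± 55.3 and was the higher in 19 sums. The other 6 steps were 1.58 to 8.04 CPM, with SDs of at least 40.5. Counting intervals of the levels pooled over the NC sums cover counting error only. They did not overlap for Idh3g (113 to 143 CPM) and Dlst (68.2 to 92.2). Nor did they for Suclg1 (51.4 to 72.6) and Fh1 (20.8 to 35.1). Those of the other neighbours overlapped. Ranked among all 17280 genes by mean NC level, Idh3g exceeded 92.0% of genes and Idh1 64.1%. In counts, the 28 NC sums together held 281 UMIs of Idh3g and 65 of Idh1. Idh1 was at 0 in 8 of the 28 sums, whereas Idh3g, Dlst, Cs and Mdh2 were above 0 in all of them.

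**Figure D1:**
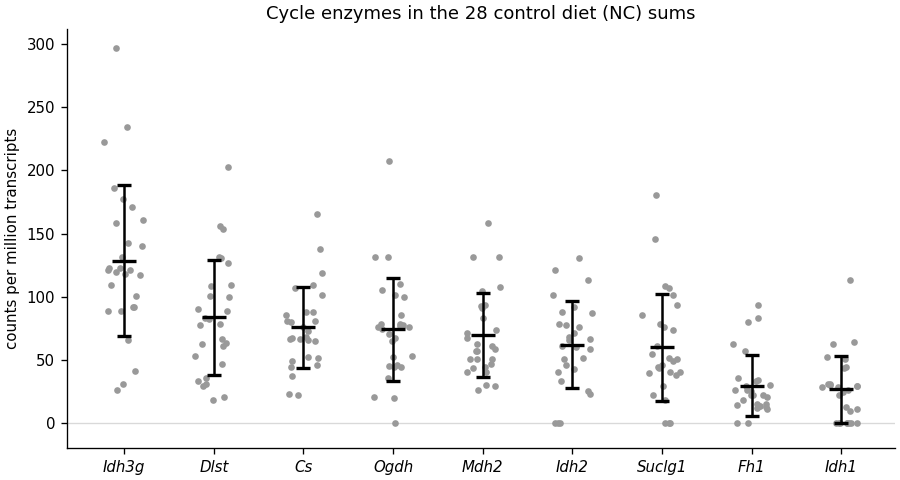
Level of each cycle enzyme in the 28 NC sums, in CPM. Grey points are sums, and the black bar and whiskers give the mean ± SD. Idh3g averaged 129 and Idh1 26.6. The SDs of neighbouring genes overlap, which describes single sums and not the error of a mean.

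In single wells the enzymes were seen sparsely. At 1500 transcripts per well, 1 UMI equals 667 CPM, far above the level of any member, so a well without a UMI does not lack the enzyme. After thinning every well to 1500 transcripts, 17.3% of the 1617 wells held a UMI of Idh3g and 4.21% held one of Idh1, against 28.4% and 7.67% before thinning. A UMI of none of the 9 enzymes was found in 41.1% of thinned wells, 1 enzyme in 39.3%, and 3 or more in 4.27%. The mean number of enzymes seen per thinned well was 0.837 on NC, 0.876 at 1 day, 0.876 at 3 days, 0.703 at 1 week, 0.781 at 4 weeks, 0.915 at 9 weeks and 0.883 at 16 weeks. The lowest value was thus at 1 week. These shares are pooled over plates and were not tested.

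**Figure D2:**
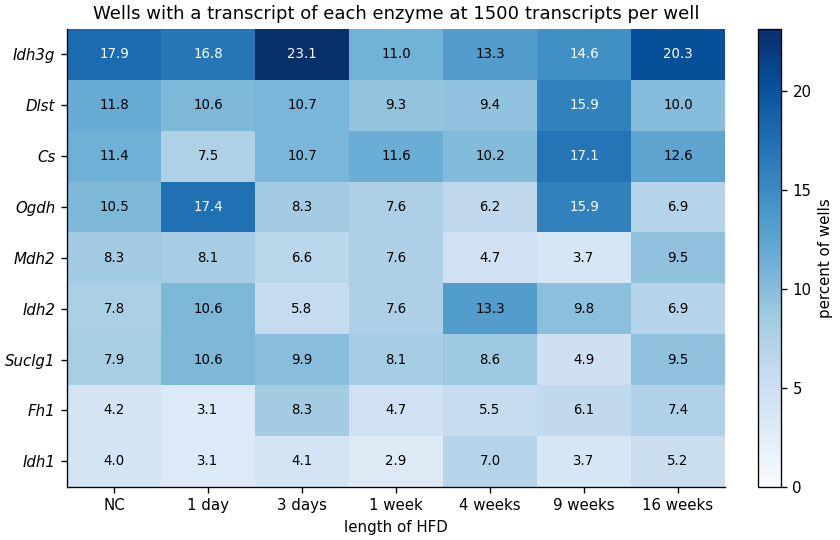
Percent of wells with at least 1 UMI of each enzyme after thinning to 1500 transcripts per well, by enzyme (rows) and by diet and length of HFD (columns). Idh3g led on NC (17.9%), and Idh1 was lowest there (4.0%).

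The members varied among themselves with little in common. Over the 68 sums, on log2 CPM with the mean of each plate taken off, Pearson's r between 2 members ran from -0.32 (Suclg1 and Fh1) to 0.17 (Suclg1 and Idh2), with a median of 0.05 over the 36 pairs. Of these pairs, 19 lay above 0. The points share library depth and, at these counts, much of each value is counting noise. The 5 genes whose pattern was most like the summed level of the members over the same 68 sums were Zfp207 (r = 0.53), Ythdf2 (0.48), Cep120 (0.47), Gramd4 (0.47) and Rnf145 (0.46), out of 8104 genes with a median r of 0.00. They are the extreme of a large number of comparisons and are given as a description.

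Whether any length of HFD altered the enzymes was asked within plates, in 1 fit of all sums with the plate as a block. Of 8113 genes that passed the filter on low counts, all 9 members included, the quasi-likelihood test of edgeR, adjusted over all genes by Benjamini-Hochberg, called 8 genes in the F test over all lengths, 0.0986% of those tested. None was a member, and the smallest unadjusted p of a member in that test was 0.127, for Idh1. The called genes included the MHC class II genes H2-Aa, H2-Ab1 and H2-Eb1. Over the 54 combinations of 9 enzymes and 6 lengths, 0 were called, 1 had an unadjusted p under 0.05, and the smallest adjusted p was 0.966. DESeq2 called 0 and had 2 at an unadjusted p under 0.05, and limma voom called 0 and had 0. The SE of a member's log2 fold change ran from 0.22 to 0.90, with a median of 0.45. For 15 of the 54 values, the 95% interval lay wholly between -1 and 1, and for the others a log2 change of 1 in at least 1 direction was not outside it. All comparisons with NC on the same plates share those NC sums.

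**Figure D3:**
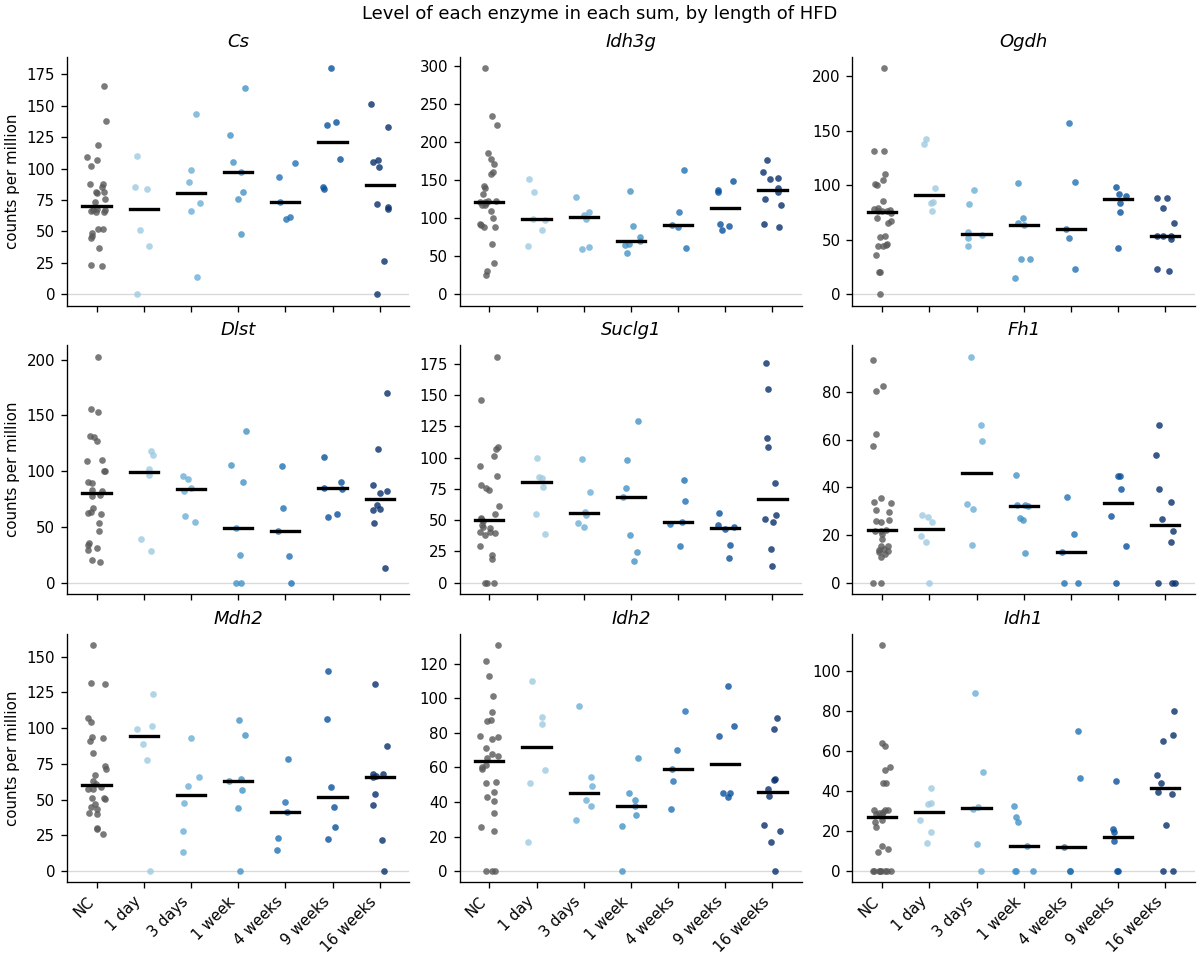
Level of each enzyme in every sum, in CPM, by diet and length of HFD, with the median of each group as a bar. Groups lie on different plates, so the columns are compared within plates in the text; in each of the 9 panels the HFD points fall largely within the range of the 28 NC sums, with the most exceptions in Mdh2.

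At 1 day of HFD, none of the 9 enzymes passed the test, where 0% of the 8113 genes did and 332 had an unadjusted p under 0.05. Suclg1 gave the largest value. Its level in the 6 HFD sums was 38.9 CPM at the lowest, 80.2 at the median and 99.5 at the highest, and in the 6 NC sums of the same plates 0, 45.3 and 61.3. The groups overlapped, and the HFD mean was the higher on both plates, as it was for 25.7% of all genes tested. The log2 fold change was 0.93 ± 0.54 (SE), with an unadjusted p of 0.072 and an adjusted p of 1 by edgeR's quasi-likelihood test. This value rested on the plates unequally, at 2.16 without plate 8 and 0.16 without plate 6. Ogdh and Dlst, which form the succinyl-CoA that Suclg1's enzyme uses, had log2 fold changes of 0.35 ± 0.40 and -0.12 ± 0.43. On both plates the HFD mean was higher for 2 members (Ogdh and Suclg1) and lower for 1 (Cs), where 24% of all genes were lower on both. The median log2 fold change over the members was -0.02, beside 0.01 over all genes tested.

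At 3 days of HFD, 0 of the 9 enzymes were called, beside 0.0123% of genes (1 gene, H2-Aa). Idh1 was the member with an unadjusted p under 0.05, where 406 of the genes tested had one. Its level on the 2 plates that hold both diets was 0, 13.6, 31.0 and 31.8 CPM in the 4 HFD sums and 0, 0, 0, 0 and 50.7 CPM in the 5 NC sums. The highest value of either diet was thus an NC sum, and the groups overlapped. These values stand for 6 UMIs on HFD and 2 UMIs on NC, a ratio of 1.45 with an exact 95% counting interval of 0.26 to 14.7. The 2 further HFD sums of 3 days lay on plate 5, which has no NC sum, and were higher, at 49.4 and 89.2 CPM (3 and 6 UMIs). The fitted log2 fold change, into which plate 5 enters through the lengths it shares with other plates, was 1.75 ± 0.90 (SE) with an unadjusted p of 0.029 and an adjusted p of 0.966 by edgeR's quasi-likelihood test. Its 95% interval, taken from the SE and not from the test, was -0.07 to 3.56. The value was 0.23 with no plate block and 0.92 by limma voom.

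The other enzymes at 3 days were spread around 0. Fh1 had a log2 fold change of 0.97 ± 0.65, with 15.9 to 94.9 CPM in the 4 HFD sums and 25.4 to 93.5 CPM in the 5 NC sums of the same plates, which overlapped almost wholly. Dlst was at 0.53 ± 0.47 and Idh2 at 0.32 ± 0.54. Idh3g was at -0.43 ± 0.37, with 61.9 to 127 CPM on HFD and 41.4 to 235 CPM on NC. Ogdh was at -0.27 ± 0.45, Mdh2 at -0.20 ± 0.52, Suclg1 at 0.09 ± 0.48 and Cs at -0.02 ± 0.44. On both plates the HFD mean was lower for 3 members (Idh3g, Ogdh and Mdh2), as for 20% of all genes tested, and higher for 3 (Dlst, Idh2 and Idh1), as for 30.7%. The median over the members was 0.09, beside 0.12 over all genes tested. In sums scaled by DESeq2's size factors the median over all genes was -0.03, so the values of this comparison are read relative to that shift.

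At 1 week of HFD, 0 of the 9 enzymes were called, beside 0.037% of genes (3 genes, H2-Aa, H2-Ab1 and H2-Eb1, all higher). Idh3g came closest to the threshold. Its level was 75.8 and 70.2 CPM in the 2 HFD sums of plate 4, where the NC sum of 7 wells had 235. It was 54.5 CPM against 109 on plate 7 and 89.3 against 118 on plate 9. On plate 13, 1 HFD sum had 64.7 CPM and the 4 NC sums had 41.4, 117, 143 and 178. The HFD mean was therefore the lower on 4 of 4 plates, while the 2 diets overlapped through 1 NC sum of plate 13. The remaining 2 HFD sums, on plate 5, which has no NC sum, had 65.5 and 136 CPM, the latter above the NC sums of plates 7 and 9. The log2 fold change was -0.61 ± 0.34 (SE, 95% interval -1.30 to 0.08), with an unadjusted p of 0.069 and an adjusted p of 0.999 by edgeR's quasi-likelihood test. The pooled counts, 35 UMIs on HFD and 55 on NC, gave a ratio of 0.56 with a counting interval of 0.36 to 0.88, which covers counting error and not the spread between sums. Of the 54 counting intervals, 3 left out a ratio of 1, those of Idh3g and Suclg1 at 1 week and of Cs at 9 weeks. Some 95% intervals leave out 1 by counting error alone, and the share over all genes was not computed. Over the other settings of the fit the value of Idh3g ran from -0.99 to -0.51. Its unadjusted p, by the test of each setting, ran from 0.015 to 0.258.

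Ogdh and Idh2 also had the lower HFD mean on 4 of 4 plates at 1 week, which makes 3 of 9 members with Idh3g, where 5.66% of all genes tested were lower on every plate. This is a description of the plate means, and none of the 3 passed the test. Ogdh had 32.3, 63.1 and 102 CPM at the lowest, median and highest of 5 HFD sums, and 35.6, 70.1 and 207 CPM in 7 NC sums, for a log2 fold change of -0.49 ± 0.41. Idh2 had 0, 32.5 and 40.9 CPM on HFD and 0, 51.1 and 101 CPM on NC, for a log2 fold change of -0.29 ± 0.51. In each of these pairs the diets overlapped. Suclg1 was at -0.43 ± 0.45, with the HFD mean higher on 2 and lower on 2 of 4 plates, and ran from -1.28 to 0.46 over the other settings of the fit. Its ratio of pooled counts was 0.49 (counting interval 0.28 to 0.84). Idh1 was at -0.40 ± 0.79. Against these, Fh1 was at 0.44 ± 0.67, Cs at 0.23 ± 0.39, Dlst at 0.15 ± 0.43 and Mdh2 at 0.06 ± 0.45. The median over the members was -0.29, beside 0.04 over all genes tested, with 5 of 9 members below 0 where 46.1% of all genes were.

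At 4 weeks of HFD, 0 of the 9 enzymes were called, beside 0.0863% of genes (7 genes, 6 of them higher). Only 3 HFD sums and 2 NC sums share plates here. Mdh2 had 41.2 CPM against 63.0 on plate 1, and 48.2 and 14.7 against 67.0 on plate 4. Idh3g had 108 CPM against 121 on plate 1, and 60.2 and 88.3 against 235 on plate 4. For these 2 members every HFD sum lay below every NC sum, as it did for 8.52% of all genes tested. The fitted log2 fold changes were -0.56 ± 0.55 for Mdh2 and -0.39 ± 0.38 for Idh3g, neither past the test. Without plate 4, whose NC sum holds 7 wells, Idh3g was at -0.12. Idh1 was at 0.98 ± 0.90, on 10 UMIs on HFD and 2 UMIs on NC, a ratio of 3.42 with a counting interval of 0.73 to 32.1. Without the NC sum of plate 1 the value was -0.01. Fh1 was at -0.63 ± 0.80, and the other 5 enzymes lay between -0.18 and 0.43. On both plates the HFD mean was lower for 4 members (Cs, Idh3g, Fh1 and Mdh2), as for 20.5% of all genes tested, and higher for 3 (Suclg1, Idh2 and Idh1), as for 28.1%. S100a9, the neutrophil marker, was among the genes called higher at this length, and its part in the members' values was not tested beyond leaving out the wells that hold such markers, which called 0 members as well.

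At 9 weeks of HFD, none of the 9 enzymes were called, and neither was any of the 8113 genes (0%), while 409 had an unadjusted p under 0.05. Cs, the entry enzyme, had 83.9, 121 and 180 CPM at the lowest, median and highest of 6 HFD sums and 22.6, 73.0 and 119 CPM in the 12 NC sums of the same 3 plates. The HFD mean was higher on 3 of 3 plates, as for 11.7% of all genes tested, and the groups overlapped between 83.9 and 119 CPM. The log2 fold change was 0.65 ± 0.34 (SE, 95% interval -0.04 to 1.34), with an unadjusted p of 0.057 and an adjusted p of 0.982 by edgeR's quasi-likelihood test. The ratio of pooled counts was 1.73, with a counting interval of 1.11 to 2.67. The 6 HFD sums come from 2 replicates, each sorted on 3 plates, and the value was 0.33 without one of them and 0.90 without the other. Suclg1 stood on the other side, with 19.6, 43.8 and 56.0 CPM on HFD and 18.6, 51.2 and 181 CPM on NC, lower on 3 of 3 plates as for 15% of all genes tested, at a log2 fold change of -0.83 ± 0.51 and an unadjusted p of 0.084 by the same edgeR test. It was -1.16 and -0.50 as either replicate was left out. Over the 9 members, 3 (Cs, Ogdh and Idh2) had the higher HFD mean on 3 of 3 plates and 2 (Dlst and Suclg1) the lower. The remaining 7 enzymes lay between -0.64 (Idh1, ± 0.81) and 0.24 (Ogdh, ± 0.39). The median over the members was -0.06, beside -0.03 over all genes.

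At 16 weeks of HFD, the length with the most sums, none of the 9 enzymes and 0% of genes were called, with 366 genes at an unadjusted p under 0.05. Here the SEs were the smallest, from 0.22 for Idh3g to 0.48 for Fh1. Idh3g was at -0.09 ± 0.22, with 87.8, 137 and 177 CPM at the lowest, median and highest of 10 HFD sums and 25.8, 131 and 297 CPM in the 18 NC sums of the same plates. Its 95% interval of -0.54 to 0.36 lay within a log2 change of 1 either way. The same held for Dlst (0.00, -0.59 to 0.60), Fh1 (0.01, -0.95 to 0.97), Mdh2 (-0.09, -0.75 to 0.57), Cs (0.21, -0.36 to 0.77) and Suclg1 (0.14, -0.51 to 0.78), for Fh1 only narrowly. The 10 HFD sums come from 5 replicates, and NC replicates also recur across plates. The degrees of freedom behind these intervals are therefore overstated. Idh2, at -0.50 ± 0.35, and Ogdh, at -0.47 ± 0.32, had the lower HFD mean on 4 and 5 of 6 plates. Idh1, at 0.51 ± 0.47, had the higher on 5 of 6, as did Cs. Idh3g and Dlst had the lower on 4 of 6 and Suclg1 the higher on 4, while Fh1 and Mdh2 were higher on 3 and lower on 3. On every plate, 0 members were lower, beside 1.80% of all genes tested, and 0 higher, beside 1.63%. The share of all genes at 4 or 5 of 6 plates was not computed. The median over the members was 0.00, beside -0.05 over all genes.

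**Figure D4:**
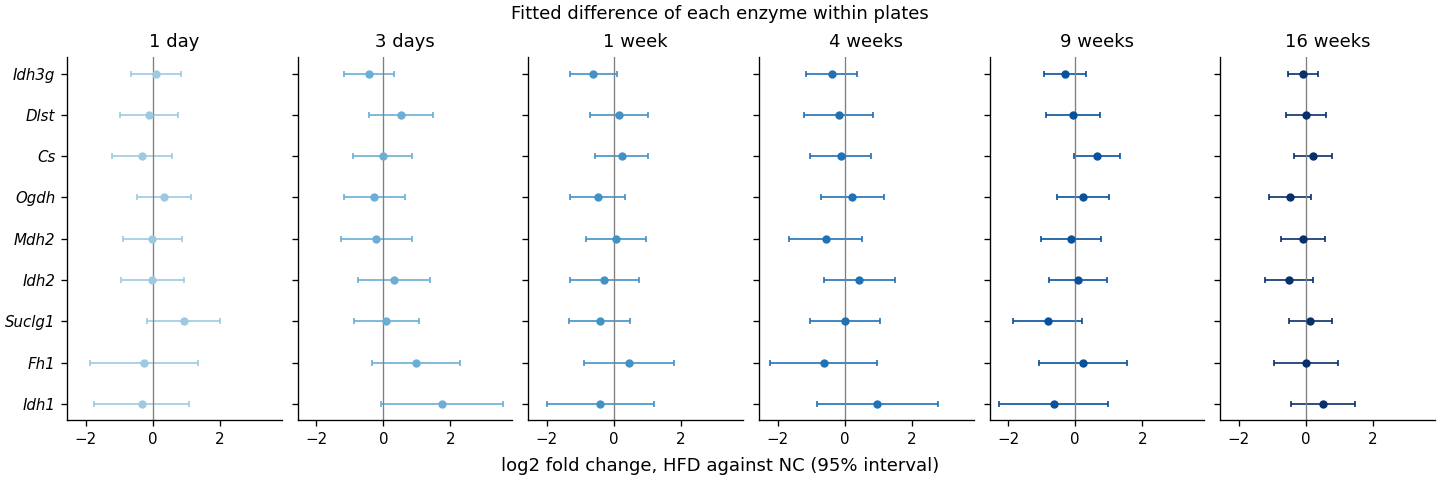
Fitted log2 fold change of each enzyme, HFD against NC within plates, by length of HFD, with 95% intervals. All 54 intervals include 0; that of Idh1 at 3 days runs from -0.07 to 3.56.

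Summed over the 9 enzymes, the level was 610 CPM ± 116 (SD, n = 28) in NC sums, from 412 to 881. Compared within plates, the summed level on HFD differed from NC by 15.6 CPM at 1 day, -41.0 at 3 days, -137 at 1 week, -66.3 at 4 weeks, 13.4 at 9 weeks and -13.1 at 16 weeks. The SD between single sums of 1 diet, length and plate was 118 CPM with the totals and wells used here. Only the difference at 1 week exceeded it in size. The SD was not computed for other settings, so their differences are not set against it. In wells of at least 2500 transcripts the difference was 137 CPM at 1 day and -77.5 CPM at 1 week. The difference at 4 weeks was -160 CPM without plate 1 and 58.1 CPM without plate 4. At 1 week the sum was 468 CPM on HFD and 605 CPM on NC, weighted over plates, which is 77.3% of NC, and it was lower on 4 of 4 plates. By plate, it was 455 and 465 CPM against 536 on plate 4, 600 against 759 on plate 7, 422 against 494 on plate 9, and 420 against 514, 606, 662 and 761 on plate 13. Each of these 5 HFD sums lay below every NC sum of its own plate, and across plates the 2 diets overlapped between 494 and 600 CPM. The remaining 2 HFD sums of 1 week, with 524 and 590 CPM, lay on plate 5, which has no NC sum. Markers of some other cell types had higher medians at this length than on NC, and those of others did not. The 2 detected monocyte markers summed to 0 to 1078 CPM with a median of 43.9 at 1 week and 0 to 40.5 with a median of 6.13 on NC, and the 5 markers of border-associated macrophages to 0 to 257 with a median of 48.7 against 0 to 140 with a median of 23.8. S100a9 had a median of 8.77 at 1 week and 0 on NC, and the astrocyte list 8.12 and 0. The medians were 40.9 and 46.9 for the oligodendrocyte list, 13.6 and 29.3 for the endothelial list, 32.8 and 31.6 for the neuron list and 0 in both for the lymphocyte list. Without the wells that hold 3 or more transcripts of other types' markers, the difference of the enzymes was -120 CPM. At 9 weeks the level was the higher on 2 of 3 plates, and at 16 weeks on 2 of 6. No p is given for the sum, since its members were chosen with results of these data known. The difference at 1 week was -82.9 CPM when totals included the 447 genes outside the filtered table. It was -160 to -99.9 CPM as each plate or replicate was left out. Other differences changed sign, to 9.71 CPM at 3 days with those wider totals and to -22.2 CPM at 9 weeks in wells of at least 2500 transcripts.

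**Figure D5:**
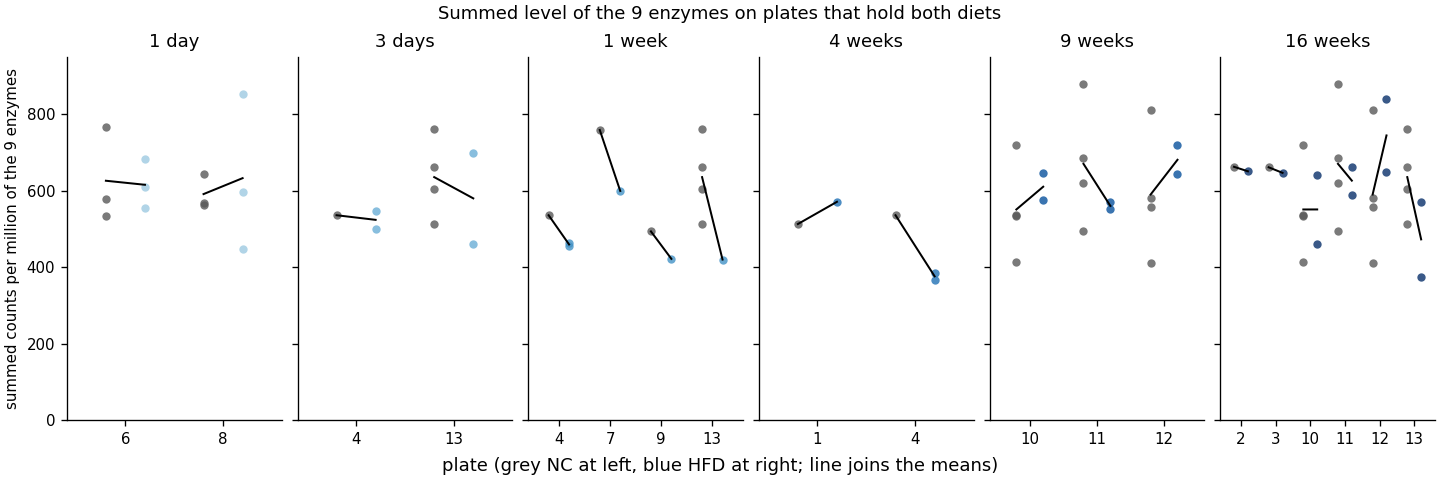
Summed level of the 9 enzymes in each sum, in CPM, by plate, for plates that hold both NC (grey) and the given length of HFD (blue), with lines joining the means of a plate. At 1 week the line falls on all 4 plates, from 605 to 468 on average. In wells of at least 2500 transcripts, which are not plotted apart, the difference is -77.5 at 1 week and 137 at 1 day.

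Among the other genes of the pathway, 1 mitochondrially encoded transcript passed a test in the main fit and no nuclear gene of the lists did. Of 10 other cycle enzymes, such as the succinate dehydrogenase subunits and aconitase, 9 could be tested, and 0 passed in either direction at any length. The 3 with the smallest p of the F test were Sdhd (p = 0.096), Sdha (0.135) and Dld (0.528) by edgeR. Sdhd, a membrane anchor of succinate dehydrogenase, had log2 fold changes of -0.86 ± 0.54 at 1 week and -0.91 ± 0.41 at 16 weeks, and 0.43 ± 0.45 at 9 weeks. Sdha, its catalytic flavoprotein, was at -0.42 ± 0.34, 0.45 ± 0.24 and -0.01 ± 0.33 at 1 week, 16 weeks and 9 weeks. Neither subunit passed the test, and their values at 16 weeks lay on opposite sides of 0. Dld, the lipoamide dehydrogenase shared by the 2-oxoacid complexes, was at -0.19 ± 0.59 at 1 day and -0.84 ± 0.68 at 4 weeks. The medians over this list ran from -0.19 at 1 day to 0.29 at 9 weeks.

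Of 13 genes of pyruvate entry, 8 could be tested and 0 passed. Pdk1, a kinase that inhibits pyruvate dehydrogenase, had log2 fold changes of 0.77 ± 0.40 at 1 week and -1.09 ± 0.40 at 9 weeks, the latter with an unadjusted p of 0.0035 and an adjusted p of 0.725 by edgeR's test. Pdha1, the catalytic alpha subunit of that enzyme, was at 1.74 ± 0.94 at 1 day, and Mpc2, of the mitochondrial pyruvate carrier, at -0.96 ± 0.43 at 16 weeks. Of 14 genes of exit and exchange, 11 could be tested and 0 passed. Acod1, which makes itaconate, is not in the table shared by all plates and was not analysed here. The 3 genes of this list with the smallest p of the F test were Me2, Me3 and Acly. Me2, the mitochondrial NAD-dependent malic enzyme, was at -1.84 ± 1.09 at 3 days and -1.34 ± 0.83 at 16 weeks. Me3, its NADP-dependent relative, was at 0.95 ± 0.88 at 3 days, 1.55 ± 1.31 at 4 weeks and -1.40 ± 1.19 at 16 weeks. Acly, which splits exported citrate, ranged from -0.72 ± 0.45 at 1 day to 0.41 ± 0.42 at 3 days.

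All 16 genes of fatty acid oxidation could be tested, and 0 passed. Etfb, which carries electrons from acyl-CoA dehydrogenases, was at -1.18 ± 0.55 at 1 week and 0.89 ± 0.44 at 16 weeks. Acaa2, the mitochondrial thiolase, was at 2.74 ± 1.15 at 3 days and 2.15 ± 1.12 at 4 weeks, with an adjusted p of 0.686 and 0.999 by edgeR's test, from an NC level of 15.6 CPM ± 20.1. Hadha, of the trifunctional protein, was at -0.62 ± 0.41 at 3 days and -0.92 ± 0.44 at 4 weeks, and at 0.58 ± 0.35 at 9 weeks and 0.22 ± 0.27 at 16 weeks. The median over this list ran from -0.11 at 4 weeks to 0.35 at 3 days, where it was 0.12 over all genes, and lay between -0.01 and 0.04 at the other 4 lengths. Of the 16 transcripts of the mitochondrial genome, 11 could be tested. Of these, the ribosomal RNA mt-Rnr1 passed the F test over all lengths (adjusted p = 0.042 by edgeR) but no single length. It was at 0.51 ± 0.19 at 4 weeks and -0.26 ± 0.16 at 1 week. DESeq2, and edgeR with its default filter on low counts, each called 0 genes over all lengths, so this call was lost there. At 9 weeks the other ribosomal RNA, mt-Rnr2, was at -0.45 ± 0.12 (adjusted p = 0.389 by edgeR) and mt-Nd5, a complex I subunit, at -0.35 ± 0.13. The mitochondrially encoded transcripts together made up 32344 CPM on NC, and their medians ran from -0.15 at 9 weeks to 0.16 at 4 weeks.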

How the data were processed

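Single hypothalamic microglia from 13 plates were measured. Per the paper's methods and the labels, the authors trimmed barcodes with Cutadapt, mapped reads with STAR to mm10 (GRCm38), counted them with featureCounts and corrected UMIs, and deposited estimated counts of transcripts per gene and well that are not normalized. Counts were summed over wells, rounded, and tested with edgeR 4.0.16 (glmQLFit, TMM, filterByExpr with a minimum count of 3 and total of 15, plate as a block, R 4.3.3) with Benjamini-Hochberg adjustment at 0.05. SEs come from the information matrix of the fit and its quasi-likelihood variance, and 95% intervals from the SE and 49 residual degrees of freedom, so an interval and a p can differ near the threshold. DESeq2 1.42.0, limma 3.58.1 and the other alternatives are given after the results. The script was tested on simulated data. Counting intervals (exact, 95%) cover counting error only. Diets and lengths were read from the deposited annotation of wells, since all 13 samples carry 1 label, whose treatment text names 3 days only. The members and the pathway lists were chosen with earlier results of these data known. Named genes are the members, list genes past the test or, where fewer than 3 passed, the 3 with the smallest p over all lengths, and the 5 most alike; H2-Aa, H2-Ab1, H2-Eb1 and S100a9 were named after their values were seen. Of the filtered table only gene names were used, and its 843 value columns were not.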

Additional observations from a re-analysis of the deposited data

Results flagged for a closer look

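Over the 9 enzymes and their sum, 60 groups of 5 to 10 sums were screened for a sum far from the rest of its group (Dixon's criterion), and 3 stood apart, where chance alone gives about 1 in 20. Idh3g was at 136 CPM (9 UMIs) in 1 sum of plate 5 at 1 week, against 54.5 to 89.3 in the other 6. Mdh2 was at 0 (no UMI among 59508 transcripts) in 1 sum of plate 6 at 1 day, against 77.9 to 124 in the other 5. Idh2 was at 95.4 CPM (6 UMIs) in 1 sum of plate 13 at 3 days, against 29.7 to 54.2 in the other 5.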

How the results depend on the processing

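No enzyme was called under any alternative or with any plate or replicate left out, where the smallest adjusted p over the alternatives was 0.504. Uncalled values of the enzymes changed sign in 59 of 863 cases over the alternatives and in 133 of 3078 with a plate or replicate left out. Counts were low: Idh1 rested on 5 to 31 UMIs per length of HFD on shared plates and Idh3g on 32 to 100. No paired analysis was possible because the replicate identifiers do not pair the diets. The plate was a block in all fits except the alternative without it. Alternatives named as added were chosen after seeing the data.

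The counts of genes called, in the order 3 days, 1 week, 4 weeks, any length, moved as follows. DESeq2 gave 0, 0, 0 and 0, and 1 at 9 weeks. The default filter, under which 1 enzyme was tested among 2336 genes, gave 0, 0, 0 and 0. No filter gave 6, 6, 12 and 30, with 4 at 9 weeks and 4 at 16 weeks. No plate block gave 29, 17, 23 and 58, with 3 at 1 day and 1 at 16 weeks. Limma voom gave 0, 6, 1 and 15, with 1 at 1 day and 3 at 16 weeks. A fit per length gave 0, 5 and 4, with 2 at 9 weeks. All common genes gave 0 at 3 days, 4 at 4 weeks and 5 at any length. Sums of 1 length on 1 plate gave 6 at 3 days, 6 at 1 week, 19 at any length, 1 at 9 weeks and 3 at 16 weeks. Sums of at least 10 wells gave 0 at 1 week and 1 at 16 weeks. Scaling by totals gave 2 at 3 days. Wells of at least 1000 transcripts gave 0 at 3 days, and of at least 2500 gave 0 at 3 days, 0 at 1 week and 1 at 9 weeks. Without wells that hold other types' markers the counts were 2, 0, 1 and 4, with 2 at 9 weeks. Of the added alternatives, fitting the labels 1_week and 7_days apart gave 5 at 3 days, 1 and 5 for the 2 labels, 2 at 9 weeks, 3 at 16 weeks and 24 at any length; linked plates gave 7 at 3 days, 9 at 1 week, 1 at 9 weeks, 2 at 16 weeks and 23 at any length; and splitting plate 13 gave 0 at 3 days and 0 at 1 week. With a plate or replicate left out, the counts ran from 0 to 0 at 1 day, 0 to 7 at 3 days, 0 to 5 at 1 week, 4 to 9 at 4 weeks, 0 to 3 at 9 weeks, 0 to 3 at 16 weeks and 5 to 20 at any length. The cause was not tested.

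The summed level at 1 week stayed below NC, at -155 to -77.5 CPM over the alternatives, the one without wells that hold other types' markers having been added for this value. At 4 weeks it was 58.1 CPM above NC in sums of at least 10 wells, and also without plate 4, whose NC sum has 7 wells. At 1 day it was 137 CPM above NC in wells of at least 2500 transcripts. At 3 days it was 9.71 CPM above NC with totals over all common genes. The difference at 9 weeks was -22.2 CPM in wells of at least 2500 transcripts. With a plate or replicate left out it ran from -36.4 to 53.9 at 1 day, -101 to 29.4 at 3 days, -160 to -99.9 at 1 week, -160 to 58.1 at 4 weeks, -25.2 to 75.1 at 9 weeks and -57.7 to 26.9 at 16 weeks.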
